A study of Oryza sativa with 81 samples.

Results

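The genes described here are 200 rice gene models of moderate abundance whose counts came almost wholly from filling panicles. Counts of each library were divided by the library's total outside identifier block 00, a group of 114 gene models whose identifiers start with OsR498G00, and expressed as counts per 1000000 (CPM). Of 38714 gene models, 411 had a mean CPM over filling panicle libraries that, after 0.1 was added, was at least 32 times the mean in young seedlings and in young panicles. Those ranked 61 to 260 by their filling panicle mean were taken. The genes were thus chosen by their tissue means over all lines, and their levels by tissue are given as a description, with no test.

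RNA was sequenced from 5 first-generation hybrids and 4 parents of rice (Oryza sativa), in a study concerned with predicting heterosis, that is, hybrids outperforming their parents. In WY998 the parents were WFB and R998, in WY308 they were WFB and R308, in RY998 RFB and R998, in RY308 RFB and R308, and in WR they were WFB and RFB. All lines were grown in an experimental field, and each gave 3 libraries of ribosomal RNA-depleted total RNA per tissue, numbered 1 to 3 for young seedlings, 4 to 6 for young panicles, and 7 to 9 for filling panicles. The labels do not say whether the libraries of a line came from separate plants, so p-values cover only the spread between these libraries.

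Filling panicles carry developing grains, in which the endosperm lays down starch and storage protein while the embryo matures inside the pericarp and hulls. Genes of storage product synthesis and of grain maturation are known for being active almost only at this stage, whereas young panicles are inflorescences whose branches and flowers are still forming. A hybrid is set against the mean of its parents, the mid-parent, because purely additive inheritance would place it there. The RefSeq gene table used here (39387 genes, another assembly) held none of the 38714 identifiers, so genes are given by identifier, what they encode is not stated, and the labelled tissues could not be checked against marker genes. In these bulk samples, fewer cells of a type and less RNA per cell cannot be told apart.

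Libraries held 29054241 to 45765805 counts. In filling panicles, R998 replicate 9 and WY308 replicate 7 stood apart from the other libraries of their lines in the genes described here. Numbers of called genes that rest on them are given with and without them. Levels and log2 differences of named genes are given with all libraries unless stated. R308 replicate 9 and RY308 replicate 8 had counts on 37377 and 34375 gene models, against 26999 to 28816 in the other 25 filling panicle libraries. In young panicles, WY998 replicate 6 and RY308 replicate 4 carried the highest counts on the 200 genes. All these libraries remained in the tissue means that chose the genes.

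The highest ranks of the list were held by OsR498G0306694600.01 and OsR498G0714830900.01. OsR498G0306694600.01, at rank 61, had no count in young seedlings, 0.126 ± 0.141 CPM in young panicles and then 433 ± 77.7 CPM at filling (SD, n = 27 libraries each), where its lowest, median and highest libraries stood at 319, 419 and 606 CPM. OsR498G0714830900.01, at rank 62, had 0.00210 ± 0.0109 CPM in young seedlings, 0.102 ± 0.192 CPM in young panicles and then 420 ± 179 CPM at filling, with 173, 374 and 974 CPM in its lowest, median and highest libraries. No young panicle library of either gene reached the level of its lowest filling panicle library. The lowest ranks were held by OsR498G1019008300.01, with 20.5 ± 25.1 CPM in filling panicles and a range of 3.15 to 122 CPM, and OsR498G0917425300.01, with 19.96 ± 6.55 CPM and a range of 8.69 to 29.0 CPM. Just outside the list lay OsR498G0203342200.01 at rank 60 with 437 CPM, OsR498G0509774400.01 at rank 59 with 449 CPM, at the low end, OsR498G0306474900.01 with 19.95 CPM and OsR498G0204179700.01 with 19.9 CPM.

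Mean levels of the 200 genes in filling panicles had a median of 57.5 CPM and quartiles of 33.5 and 129 CPM. Their median was 0.00237 CPM in young seedlings and 0.0540 CPM in young panicles. The fold of the selection, filling panicles over the higher of the other tissues with 0.1 CPM added, ran from 32.7 to 2957 with a median of 290. OsR498G0306512300.01 had the highest fold, with no count in young seedlings, 0.0168 ± 0.0642 CPM in young panicles and then 345 ± 71.7 CPM at filling. OsR498G1119606600.01 had the lowest, with 3.09 ± 1.19 CPM in young seedlings, 2.06 ± 4.18 CPM in young panicles and then 104 ± 26.9 CPM at filling. Just below the required fold, and at filling panicle levels within the range of the list, lay OsR498G1221319200.01 with a fold of 31.1 and OsR498G0100996100.01 with a fold of 30.8.

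**Figure D1:**
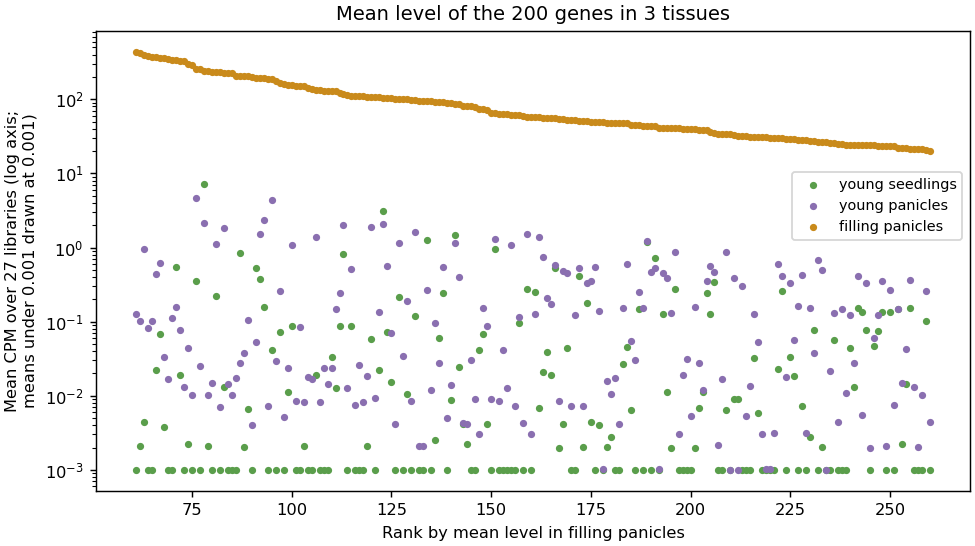
Mean CPM over 27 libraries of each of the 200 genes (logarithmic vertical axis, means under 0.001 drawn at 0.001) by tissue (colours), against the gene's rank by filling panicle level. Filling panicle means fall from 433 to 19.96 CPM along the ranks, while the means in the other tissues scatter between 0 and 7.18 CPM.

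Outside filling panicles, most of the genes had a lower mean in young seedlings than in young panicles. No count was found over the 27 young seedling libraries for 86 of the 200 genes, over the 27 young panicle libraries for 3, and in either tissue for 2. These numbers compare tissues of unlike depth, as block 00 took far more of the counts in young seedlings. The mean was higher in young panicles than in young seedlings for 182 genes, lower for 16 and equal for 2. Many of these means were near 0, under 0.1 CPM for 163 genes in young seedlings and 109 in young panicles. The same shares over all gene models were not determined. The 3 and the 182 rest in part on RY308 replicate 4. That library had counts on 190 of the 200 genes, against a median of 109 per young panicle library. For example, OsR498G0100925500.01 and OsR498G0100928300.01 had 1 count each over all young panicle libraries, which lay in RY308 replicate 4. A mean of at least 1 CPM was reached by 5 genes in young seedlings and by 20 in young panicles. In filling panicles 199 of the 200 genes had counts in each of the 27 libraries, the exception being OsR498G0714047000.01.

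Summed over the list, the genes took 0.00263% ± 0.000412 of the counts outside block 00 in young seedlings, 0.00631% ± 0.00210 in young panicles and then 1.998% ± 0.407 at filling (SD, n = 27 libraries each). The 60 genes of the ranks above them took 25.5% ± 5.71 in filling panicles. Among young panicle libraries, the sum was highest in WY998 replicate 6 with 152 CPM, followed by RY308 replicate 4 with 88.5 CPM, against a median of 58.0 CPM over all 27. These libraries differed in how the counts were spread. In WY998 replicate 6, 3 genes held 72.1 of the 152 CPM. OsR498G0305306500.01 had 32.7 CPM there and at most 2.47 CPM in another young panicle library, OsR498G1119606600.01 had 22.9 against at most 1.91 CPM, and OsR498G0307052600.01 had 16.5 against at most 4.85 CPM. These 3 were singled out after their values were seen. RY308 replicate 4 had counts on 190 of the 200 genes, where the median young panicle library had counts on 109, and it was the highest young panicle library for 73 genes.

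On the scale of FPKM, which divides by gene length and allows levels to be compared between genes, the 200 genes ranged from 7.70 to 588 in filling panicles with a median of 55.2. That median stood at percentile 95.7 of all gene models with counts in filling panicles. OsR498G0611604200.01, a model of 598 bases, had the highest level with 588 ± 149 FPKM, followed by OsR498G0510852300.01, a model of 657 bases, with 497.7 ± 258 FPKM (SD, n = 27 libraries). The gene models were short: their median length was 1056.5 bases, against 1439 bases for the 29123 models with a known length and 1522 bases for the 60 genes ranked above them. Middle quartiles of length were 788 to 1454 bases in the list and 1020 to 1961 bases over all models. These lengths were derived from the ratio of counts to FPKM and were not tested for a difference.

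Gene identifiers run in order within 12 numbered blocks besides block 00, and the 200 genes were spread over all 12. Block 01 held 35 of them and block 08 held 7. Relative to the gene models of each block that reached the same filling panicle level, the share in the list was lowest in block 08 with 1.29% and highest in block 05 with 3.26%. Adjacent identifiers occurred in 12 runs with 28 genes, namely 9 pairs, 2 runs of 3 and 1 run of 4. The run of 4 went from OsR498G0100928100.01 to OsR498G0100928700.01. All 4 had their lowest line mean in R998, at 23.2 to 111 CPM after TMM scaling (the trimmed mean of M-values, used for every comparison between lines), and their highest line means, 73.5 to 293 CPM, were in WR or RY308. The genes shared their highest line in 5 of the 12 runs and their lowest line in 6. Near-identical neighbours, if any of these are, may share reads, which was not tested.

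The genes also varied between libraries of filling panicles, and much of that variation lay within lines. The coefficient of variation between the 3 libraries of a line had a median over the 200 genes of 15.6% in RFB, the lowest, 54.1% in WY308 and 66.3% in R998, the highest. Over all tested genes the same median was 11.4% to 20.6% in the 9 lines. R998 replicate 9 lay above both other R998 libraries for 145 of the 200 genes, against 38.8% of all tested genes. It exceeded their mean by a median log2 of 1.32 over the 200 genes and -0.03 over all tested genes. WY308 replicate 7 lay below both other WY308 libraries for 147 of the 200 genes, against 32.9% of all tested genes, with a median log2 difference of -1.04. R308 replicate 7 lay below both other libraries of its line for 149 genes, against 29.1% of all tested genes, by a smaller median log2 of -0.54.

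**Figure D2:**
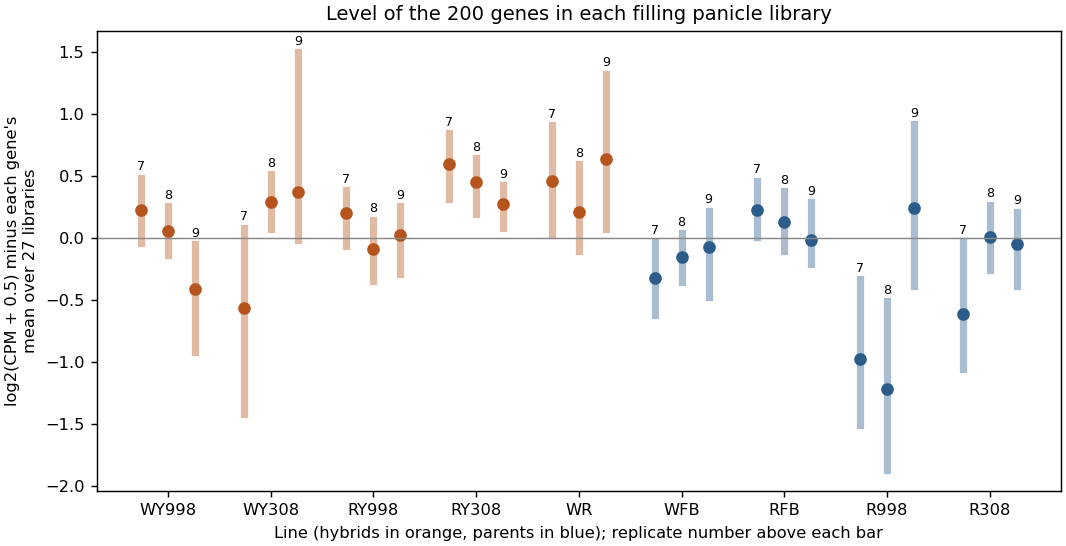
Level of the 200 genes in each of the 27 filling panicle libraries, as log2(CPM + 0.5) minus the gene's own mean over the 27 libraries. Points are medians over the 200 genes, bars span the quartiles, hybrids are orange and parents blue. The lowest medians are those of R998 replicates 7 and 8, R308 replicate 7 and WY308 replicate 7, while R998 replicate 9 sits above the other R998 libraries.

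Other groups of genes moved with these libraries. The 200 genes took 2.41% of the counts outside block 00 in R998 replicate 9, and 1.35% and 1.34% in R998 replicates 7 and 8. The 60 most abundant filling-panicle-specific genes took 35.3% in R998 replicate 9, and 16.3% and 13.9% in the other 2. For the 295 genes that passed the same 32-fold rule in young panicles, the shares ran the other way, with 0.0262% in R998 replicate 9, and 0.0644% and 0.0754% in replicates 7 and 8. In WY308 replicate 7 the 200 genes took 1.61%, against 2.07% and 3.12% in replicates 8 and 9. Young-panicle-specific genes took 0.0560% in WY308 replicate 7, against 0.0286% and 0.0250% in the others. The stage of the sampled grains is not in the labels, and its part in these differences was not tested.

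**Figure D3:**
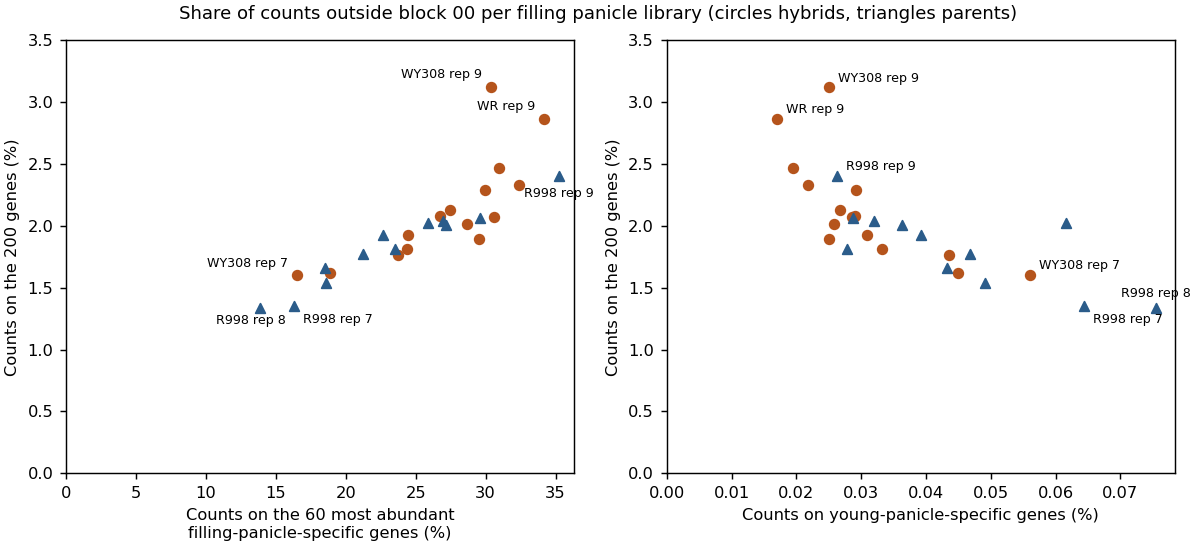
Share of counts outside block 00 on the 200 genes in each filling panicle library (vertical axes, percent), against the share on the 60 most abundant filling-panicle-specific genes (left, percent) and on the 295 young-panicle-specific genes (right, percent). R998 replicates 7 and 8 and WY308 replicate 7 lie at the low end on the left and at the high end on the right, while R998 replicate 9 has the highest share on the 60 genes, 35.3%. R308 replicate 9, with a share of 2.03% on the 200 genes, also lies at the high end on the right, with 0.0616%.

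Most of the genes moved together across the 27 filling panicle libraries, and a smaller group moved against them. Each gene's profile over the 27 libraries was set beside the median profile of the other genes. The correlation was 0.5 or more for 137 genes and below 0 for 35, and these groups, formed from the values, are given as a description. Of the 137 genes, 131 were above both other R998 libraries in R998 replicate 9 and 130 were below both other WY308 libraries in WY308 replicate 7. Of the 35 genes, 31 were below both others in R998 replicate 9 and 30 were above both others in WY308 replicate 7. The line with the highest mean was WR for 67 of the 137 and for none of the 35, and it was R998 or R308 for 4 of the 137 and 20 of the 35. OsR498G0714950700.01, named as the lowest correlation at -0.857, stood at 8.40 CPM in R998 replicate 9, against 51.6 and 47.2 CPM in R998 replicates 7 and 8. Its level was 56.2 CPM in WY308 replicate 7, against 16.5 and 21.8 CPM in WY308 replicates 8 and 9. The 35 genes had a median length of 883 bases and the 137 a median of 1094 bases.

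Lines were compared within filling panicles, a contrast that the selection did not use. All 200 genes passed the filter on low counts and were tested among 25336 genes in 1 model of the 27 libraries. The line with the highest mean was a hybrid for 168 genes, namely WR for 71, RY308 for 49, WY308 for 28, RY998 for 13 and WY998 for 7. It was a parent for 32 genes, namely R998 for 14, R308 for 11 and RFB for 7. The lowest mean lay in a parent for 158 genes, with R998 lowest for 64, R308 for 50, WFB for 41 and RFB for 3. These tallies used all libraries and no test, and the same shares over all tested genes were not determined. Of the 9 lines, 5 were hybrids, and most of the 200 genes moved together, so the genes are not separate observations. The highest line mean exceeded the lowest by a median of 2.96-fold over 199 genes, and for 38 genes by less than 2-fold. OsR498G0714047000.01, without counts in R998, has no such ratio. Differences between the 9 lines were called for 100 of the 200 genes, or 50%, against 53.1% of all tested genes (edgeR's quasi-likelihood test, Benjamini-Hochberg adjusted p below 0.05). That share is near the background. Without R998 replicate 9 it was 186 genes, against 61.2% of all tested genes, and the 186 included the 100. Without WY308 replicate 7 it was 138 genes, against 54.9% of all tested genes. Leaving out both libraries, an alternative chosen after seeing the data, gave 193 genes, against 66.4% of all tested genes. Since all lines share 1 estimate of the spread, these libraries also bear on comparisons between the other lines.

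The widest and narrowest ranges among called genes were these. OsR498G1119608900.01 had line means from 327 ± 211 CPM in WR to 2.96 ± 4.64 CPM in R308 (SD, n = 3), a ratio of 110.5, and its 3 R998 libraries alone spanned 0.0224, 0.0805 and 40.6 CPM. Its adjusted p was 0.0230 in edgeR's quasi-likelihood test after Benjamini-Hochberg adjustment and 0.0897 without WR replicate 9. OsR498G0203055400.01 had the narrowest range, from 54.7 ± 3.53 CPM in R308 to 37.0 ± 9.29 CPM in RY308, a ratio of 1.48 (edgeR's quasi-likelihood test, Benjamini-Hochberg adjusted p = 0.00211). OsR498G0611653500.01 ranged from 418 ± 33.3 CPM in RY308 to 276 ± 18.3 CPM in RFB, a ratio of 1.51 (edgeR's quasi-likelihood test, Benjamini-Hochberg adjusted p = 0.00295). Neither of these lost its call when any of the 27 libraries was left out. A ratio of 10 or more, or a line without counts, was found for 11 of the 200 genes.

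OsR498G0714047000.01 differed most between the parents. It had 45.0, 46.6 and 42.7 CPM in the WFB libraries and 66.3, 60.8 and 49.1 CPM in the RFB libraries, no count in the 3 R998 libraries, and 0, 0.0326 and 0.0284 CPM in the R308 libraries. The WFB and RFB libraries did not overlap those of R998 or R308. Against a floor of 3 counts over the 3 R998 libraries, or 0.0278 CPM, the level was at least 1616-fold higher in WFB and at least 2106-fold higher in RFB (edgeR's quasi-likelihood test, Benjamini-Hochberg adjusted p = 7.72e-10 and 4.42e-10). R308 had 2 counts over its 3 libraries, and the ratio to R308 was 2312 in WFB (exact 95% counting interval 640 to 19095) and 3013 in RFB (834 to 24884), with adjusted p-values of 9.39e-10 and 5.68e-10 in the same test. All 5 hybrids expressed the gene, with means of 103 ± 35.9 CPM in WR, whose parents both did, and 48.6 ± 13.4 CPM in RY308, 31.4 ± 14.0 CPM in WY998, 22.2 ± 12.8 CPM in WY308 and 21.6 ± 3.10 CPM in RY998 (SD, n = 3). Summed over 3 libraries, WFB had 33 and RFB 30 counts in young seedlings, and WFB 83 and RFB 43 in young panicles, against 0 in R998 and in R308 in both tissues.

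Between WFB and R998, 44 of the 200 genes differed, 29 of them higher and 15 lower in WFB (edgeR's quasi-likelihood test, Benjamini-Hochberg adjusted p below 0.05). This is 22.0%, against 21.3% of all tested genes, 10.5% higher and 10.8% lower. The median log2 difference of the 200 genes was 0.08, and -0.02 over all tested genes. With R998 replicate 9 left out, 98 genes were called, 79 higher and 19 lower, against 25.1% of all tested genes, 12.1% higher and 12.9% lower, and the median log2 difference was 0.93. The median was instead -0.07 without R998 replicate 7 and -0.16 without R998 replicate 8. As R998 replicate 9 was the highest R998 library in most of these genes, leaving it out lowers R998 in them by construction. OsR498G0203722700.01 had 66.6, 74.96 and 81.5 CPM in WFB and 14.7, 11.1 and 27.2 CPM in R998, with no overlap and a log2 difference of 2.08 ± 0.31 (SE; edgeR's quasi-likelihood test, Benjamini-Hochberg adjusted p = 2.67e-05). In the other direction, OsR498G0510526000.01 had 6.71, 28.5 and 12.9 CPM in WFB and 193, 276 and 1399 CPM in R998, a log2 difference of -5.28 ± 0.79 (edgeR's quasi-likelihood test, Benjamini-Hochberg adjusted p = 2.83e-05). OsR498G0510518700.01 had 0.250, 3.92 and 2.66 CPM in WFB and 23.7, 44.3 and 298 CPM in R998, with no overlap. Its mean over the other 8 lines was 13.8 CPM, below the 19.96 CPM of the last gene in the list, so it was selected through its level in R998 and its difference is given as a description. In all, 6 of the 200 genes fell below that level when 1 or another line was left out, and R998 decided it for this gene alone. Both genes were highest in R998 replicate 9, and OsR498G0510526000.01 remained called when any 1 of the 6 libraries was left out.

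Between RFB and R998, 62 genes differed, 50 higher and 12 lower in RFB (edgeR's quasi-likelihood test, Benjamini-Hochberg adjusted p below 0.05). Of all tested genes 20.8% did, 10.2% higher and 10.6% lower. The median log2 difference was 0.43 over the 200 genes and -0.03 over all tested genes. Without R998 replicate 9, 138 genes were called, 121 higher and 17 lower, against 27.4% of all tested genes, 13.3% higher and 14.1% lower, and the median was 1.199. The median was 0.15 without R998 replicate 7 and 0.13 without R998 replicate 8. The direction of the shift without R998 replicate 9 was again set by its high level in most of these genes. OsR498G0203722700.01 had 124, 165 and 89.3 CPM in RFB, against the R998 values above, a log2 difference of 2.84 ± 0.32 (edgeR's quasi-likelihood test, Benjamini-Hochberg adjusted p = 4.44e-07). OsR498G0510526000.01 had 27.3, 21.3 and 21.6 CPM in RFB, a log2 difference from R998 of -4.73 ± 0.77 (edgeR's quasi-likelihood test, Benjamini-Hochberg adjusted p = 8.01e-05). The comparisons with R998 share its 3 libraries, so these calls are not independent of those for WFB.

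**Figure D4:**
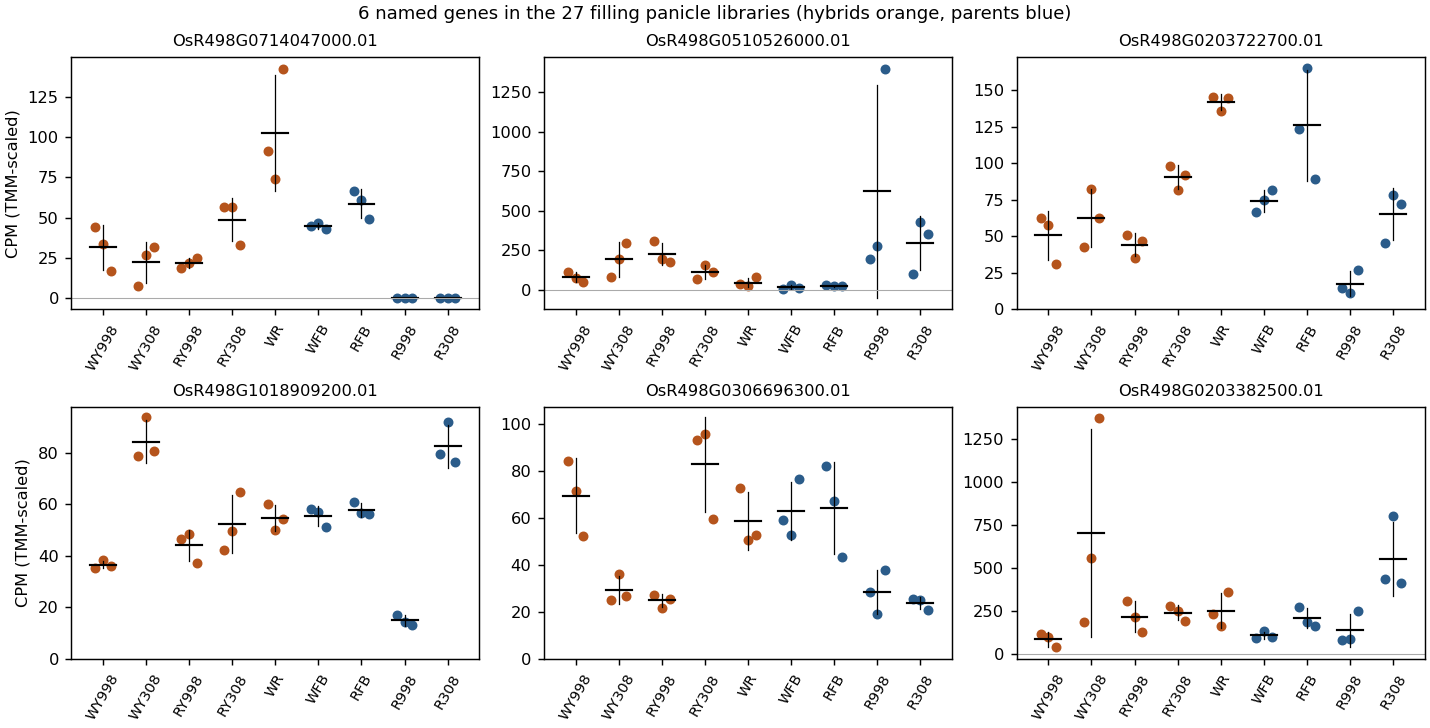
CPM after TMM scaling of 6 named genes in the 27 filling panicle libraries, with hybrids in orange to the left and parents in blue. Points are libraries, horizontal bars are means and vertical bars the SD (n = 3 each). OsR498G0714047000.01 is near 0 in R998 and R308, and OsR498G0510526000.01 is lowest in WFB and RFB.

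Against R308, 51 genes differed in WFB, 23 higher and 28 lower, where 34.1% of all tested genes differed, 18.6% higher and 15.5% lower. In RFB 40 genes differed from R308, 31 higher and 9 lower, where 28.5% of all tested genes did, 15.0% higher and 13.5% lower (both edgeR's quasi-likelihood test, Benjamini-Hochberg adjusted p below 0.05). In the 6 fits that left out 1 library, the count for WFB was 34 to 44. The count for RFB was 24 without R308 replicate 7 and 26 without R308 replicate 9, with all-gene shares not given. It was 78 with R998 replicate 9 and WY308 replicate 7 left out of the shared fit, against 33.5% of all tested genes. OsR498G0815528100.01 had 59.5, 57.9 and 45.5 CPM in RFB and 7.83, 8.28 and 9.10 CPM in R308, a log2 difference of 2.69 ± 0.18 (edgeR's quasi-likelihood test, Benjamini-Hochberg adjusted p = 9.96e-11). OsR498G0306018100.01 was lower in both, with 14.9, 32.1 and 5.23 CPM in WFB and 14.0, 29.9 and 51.4 CPM in RFB, against 305, 220 and 176 CPM in R308. Its log2 difference was -3.74 ± 0.95 in WFB and -2.88 ± 0.91 in RFB (edgeR's quasi-likelihood test, Benjamini-Hochberg adjusted p = 0.00383 and 0.0207). The call in RFB was lost without RFB replicate 7 (adjusted p = 0.0931) and without RFB replicate 8 (0.0709). OsR498G0510526000.01 was again lower, by a log2 of -4.20 ± 0.75 in WFB and -3.65 ± 0.74 in RFB (edgeR's quasi-likelihood test, Benjamini-Hochberg adjusted p = 0.000160 and 0.000618). OsR498G1119608900.01 had 35.6, 97.2 and 78.4 CPM in WFB and 0.0807, 0.489 and 8.31 CPM in R308, a log2 difference of 4.56 ± 1.67 (edgeR's quasi-likelihood test, Benjamini-Hochberg adjusted p = 0.0381). That call was lost in 5 of the 6 fits that left out 1 library, with adjusted p up to 0.112.

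R998 and R308 differed in 29 genes, 6 higher and 23 lower in R998, against 22.0% of all tested genes, 11.9% higher and 10.1% lower (edgeR's quasi-likelihood test, Benjamini-Hochberg adjusted p below 0.05). Without R998 replicate 9 the count was 71, 9 higher and 62 lower, against 26.6% of all tested genes, 14.9% higher and 11.6% lower. The median log2 difference of the 200 genes was -0.03 with all libraries and -0.90 without R998 replicate 9, but 0.12 without R998 replicate 7, 0.13 without R998 replicate 8 and 0.07 without R308 replicate 8. Of the 29 genes, 21 were also called without R998 replicate 9, a fit that lowers R998 in most of the 200 genes by construction. OsR498G1018909200.01 had 17.2, 14.5 and 13.1 CPM in R998 and 79.5, 92.1 and 76.4 CPM in R308, a log2 difference of -2.47 ± 0.14 (edgeR's quasi-likelihood test, Benjamini-Hochberg adjusted p = 7.76e-12). Its replicate 9 did not stand apart from the other R998 libraries. OsR498G1120762300.01 had 9.01, 5.87 and 12.1 CPM in R998 and 34.4, 56.0 and 54.1 CPM in R308, a log2 difference of -2.43 ± 0.39 (edgeR's quasi-likelihood test, Benjamini-Hochberg adjusted p = 6.76e-05). In the other direction, OsR498G0815528100.01 had 29.9, 30.0 and 26.4 CPM in R998, against the R308 values above, a log2 difference of 1.77 ± 0.18 (edgeR's quasi-likelihood test, Benjamini-Hochberg adjusted p = 6.60e-08). OsR498G1120212500.01 had 62.9, 56.9 and 57.4 CPM in R998 and 20.2, 16.7 and 20.3 CPM in R308, a log2 difference of 1.63 ± 0.18 (edgeR's quasi-likelihood test, Benjamini-Hochberg adjusted p = 4.39e-07).

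WFB and RFB differed in 0 of the 200 genes, against 0.71% of all tested genes (edgeR's quasi-likelihood test, Benjamini-Hochberg adjusted p below 0.05). DESeq2 also called 0, and 19 genes had an unadjusted p below 0.05 in edgeR. The share of all tested genes at that threshold was not determined, so no difference is read from the 19. Without WFB replicate 9, 1 gene was called, with the all-gene share not given. The fitted difference was below 0, that is lower in WFB, for 173 of the 200 genes, with a median log2 of -0.34 against 0.01 over all tested genes. Over all 6 pairs of parents, 93 of the 200 genes were called at least once, or 46.5%, against 50.5% of all tested genes.

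**Figure D5:**
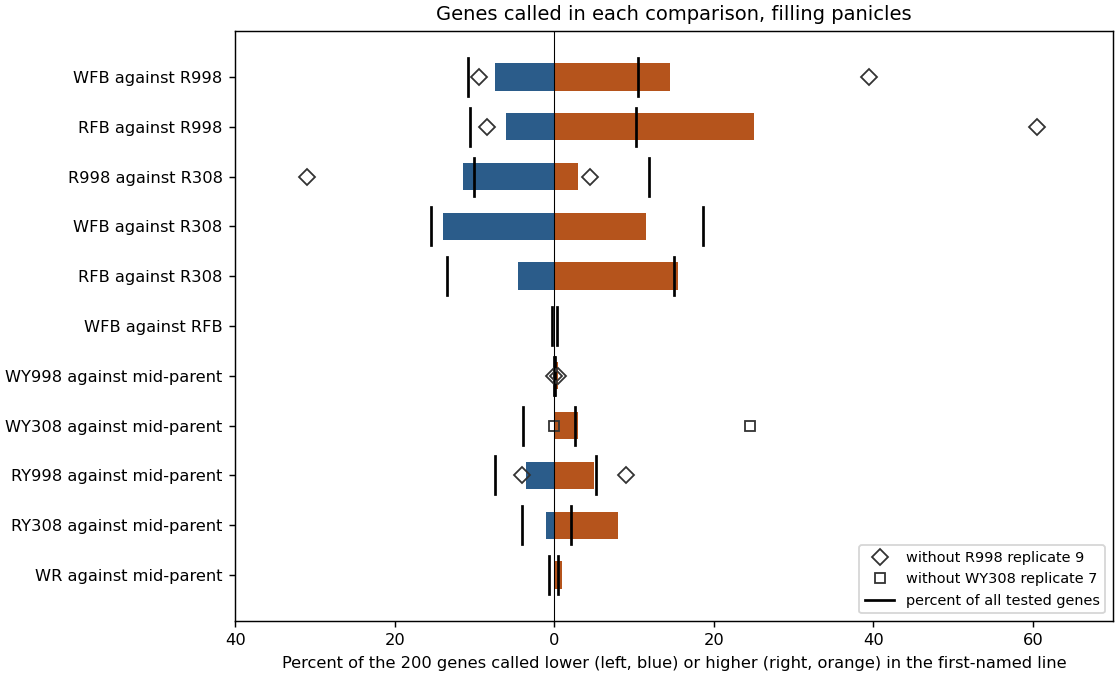
Percent of the 200 genes called higher (right, orange) or lower (left, blue) in the first-named line of each comparison within filling panicles. Black strokes mark the percent of all tested genes called in that direction, and open symbols the percent of the 200 genes without R998 replicate 9 (diamonds) or WY308 replicate 7 (squares). Without R998 replicate 9, 121 of the 200 genes are called higher in RFB than in R998, against 50 with all libraries. That library was the highest of R998 for 145 of the 200 genes, so this shift was set in direction.

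Hybrids were set against the arithmetic mean of their parents to ask where expression was not additive. Few of the 200 genes were called with all libraries, and the fitted deviation from mid-parent was above 0 for more of them than below 0 in each cross. The median log2 deviation was 0.19 in WY998, 0.36 in WY308, 0.07 in RY998, 0.45 in RY308 and 0.48 in WR, where the medians over all tested genes ran from -0.05 to -0.0022. It was positive for 142, 166, 111, 161 and 149 of the 200 genes in the same order. Leaving out 1 library at a time, the median ran from 0.04 to 0.48 in WY998, 0.17 to 0.48 in WY308, -0.04 to 0.30 in RY998, 0.35 to 0.53 in RY308 and 0.37 to 0.58 in WR. For RY998 the direction thus rested on single libraries: 91 genes were positive and 109 negative without RY998 replicate 7, 96 positive and 104 negative without R998 replicate 8, and 157 positive and 43 negative without R998 replicate 9. In WY998, 112 genes were positive without WY998 replicate 7 and 168 without R998 replicate 9. In WY308 the number was 139 without WY308 replicate 9 and 160 without WY308 replicate 7. The crosses share parents, so these counts are not independent of each other. At least 1 hybrid differed from mid-parent in 34 of the 200 genes, against 19.4% of all tested genes, and 2 or more hybrids in 8, against 5.66% (edgeR's quasi-likelihood test, Benjamini-Hochberg adjusted p below 0.05).

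With all libraries in the fit, RY308 had 18 genes called against mid-parent, 16 higher and 2 lower, against 6.15% of all tested genes, 2.10% higher and 4.04% lower (edgeR's quasi-likelihood test, Benjamini-Hochberg adjusted p below 0.05). That count was 11 without RFB replicate 8, RFB replicate 9 or R308 replicate 7, 9 without RY308 replicate 8 and 7 without RY308 replicate 7. All-gene shares are not given for these fits, so the numbers show only the dependence on single libraries. With R998 replicate 9 and WY308 replicate 7 left out of the shared fit it was 46, 43 higher and 3 lower, against 9.59% of all tested genes. OsR498G0203113900.01 had 72.8, 75.8 and 85.5 CPM in RY308, against 39.8, 41.4 and 42.4 CPM in RFB and 27.5, 28.5 and 30.3 CPM in R308. All 3 hybrid libraries lay above both parents, and the log2 deviation was 1.16 ± 0.25 (edgeR's quasi-likelihood test, Benjamini-Hochberg adjusted p = 0.00677). OsR498G0510806000.01 had 190, 172 and 118 CPM in RY308, against 111, 94.6 and 68.2 CPM in RFB and 49.8, 88.8 and 79.0 CPM in R308, a log2 deviation of 0.96 ± 0.26 (edgeR's quasi-likelihood test, Benjamini-Hochberg adjusted p = 0.0265). That call was lost in 5 of the 9 fits that left out 1 library. OsR498G0102475700.01 was lower, with 13.9, 20.5 and 33.6 CPM in RY308, against 39.2, 37.2 and 41.4 CPM in RFB and 51.6, 49.9 and 49.3 CPM in R308, a log2 deviation of -0.98 ± 0.19 (edgeR's quasi-likelihood test, Benjamini-Hochberg adjusted p = 0.00277). It also lay below each parent, by a log2 of -0.79 from the nearer one (adjusted p = 0.0351), a call lost in 5 of the 9 fits without 1 library. OsR498G0203113300.01, a neighbour of OsR498G0203113900.01 in the identifier order, had 34.0, 31.5 and 27.7 CPM in RY308, against 18.3, 15.8 and 21.5 CPM in RFB and 22.2, 21.6 and 19.6 CPM in R308. It lay above each parent, by a log2 of 0.55 from the nearer one (adjusted p = 0.0141), and lost that call in 3 of 9 such fits. These were the 2 genes of the list called beyond both parents in RY308, against 0.529% of all tested genes. With R998 replicate 9 and WY308 replicate 7 left out there were 7, against 1.22%.

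RY998 had 17 genes called against mid-parent, 10 higher and 7 lower, against 12.7% of all tested genes, 5.21% higher and 7.48% lower (edgeR's quasi-likelihood test, Benjamini-Hochberg adjusted p below 0.05). Without R998 replicate 9 there were 26, 18 higher and 8 lower, against 14.7% of all tested genes, 5.85% higher and 8.89% lower, and without WY308 replicate 7 as well there were 36, against 17.98% of all tested genes. The count was 11 without RFB replicate 7, RY998 replicate 8 or RY998 replicate 9, and 10 without RY998 replicate 7, with all-gene shares not given. OsR498G0816294500.01 had 98.4, 92.4 and 92.4 CPM in RY998, against 60.4, 39.9 and 61.2 CPM in RFB and 15.7, 10.5 and 37.9 CPM in R998, a log2 deviation of 1.33 ± 0.34 (edgeR's quasi-likelihood test, Benjamini-Hochberg adjusted p = 0.0110). OsR498G0408693200.01 had 35.2, 36.2 and 32.5 CPM in RY998, against 21.8, 14.6 and 21.1 CPM in RFB and 26.98, 22.6 and 15.9 CPM in R998, a log2 deviation of 0.76 ± 0.14 (edgeR's quasi-likelihood test, Benjamini-Hochberg adjusted p = 0.000655). Both kept their calls when any 1 of the 9 libraries was left out. OsR498G0917425300.01 was lower, with 8.73, 9.92 and 8.71 CPM in RY998, against 25.3, 21.1 and 25.4 CPM in RFB and 18.1, 10.03 and 12.9 CPM in R998, a log2 deviation of -1.04 ± 0.17 (edgeR's quasi-likelihood test, Benjamini-Hochberg adjusted p = 0.000190). It was the last gene of the list, at 19.96 CPM, and its mean without RFB was 19.2 CPM. Its place thus rests in part on a parent in which it is high, and its call is not independent of the selection. OsR498G0203872700.01 had 25.7, 25.2 and 39.8 CPM in RY998, against 82.3, 74.2 and 40.3 CPM in RFB and 58.9, 54.3 and 48.0 CPM in R998, a log2 deviation of -0.98 ± 0.29 (edgeR's quasi-likelihood test, Benjamini-Hochberg adjusted p = 0.0299). This last call was lost in 5 of the 9 fits without 1 library.

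Beyond both parents, RY998 had 4 genes of the list, against 6.16% of all tested genes (edgeR's quasi-likelihood test, Benjamini-Hochberg adjusted p below 0.05). OsR498G0408693200.01 lay above the nearer parent by a log2 of 0.66, with adjusted p = 0.00693 for the weaker of both edgeR tests, and kept that call in 9 of 9 fits without 1 library. OsR498G0917425300.01 lay below the nearer parent by -0.59 (adjusted p = 0.0359), and OsR498G0511004700.01 by -0.41 (adjusted p = 0.0290). For OsR498G0511004700.01 the libraries had 25.1, 28.7 and 28.6 CPM in RY998, against 36.1, 34.7 and 38.8 CPM in RFB and 44.6, 32.9 and 46.2 CPM in R998. These 2 calls were lost in 5 of 9 such fits each, and the limit on the selection of OsR498G0917425300.01 given above applies here too. The remaining gene, OsR498G0509824100.01, was identified after its values were seen and had 34.6, 27.1 and 34.1 CPM in RY998, against 25.9, 24.5 and 23.0 CPM in RFB and 18.3, 18.2 and 27.4 CPM in R998. The count of 4 was 1 without RFB replicate 9, RY998 replicate 7 or RY998 replicate 9, and 2 without RFB replicate 7 or RY998 replicate 8, with all-gene shares not given. It was 8 with R998 replicate 9 and WY308 replicate 7 left out, against 7.60% of all tested genes.

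WY308 had 6 genes above mid-parent and 0 below, against 6.50% of all tested genes, 2.57% higher and 3.93% lower (edgeR's quasi-likelihood test, Benjamini-Hochberg adjusted p below 0.05). Without WY308 replicate 7, 49 genes lay above and 0 below, against 10.3% of all tested genes, 5.6% higher and 4.68% lower, and without R998 replicate 9 as well 80 lay above and 1 below, against 16.9% of all tested genes. WY308 replicate 7 was singled out as below the other WY308 libraries in most of these genes. Leaving it out thus raises WY308 in them by construction, here and beyond both parents. The count of 6 was 2 without R308 replicate 7, R308 replicate 9 or WY308 replicate 9, and 3 without WFB replicate 7, with all-gene shares not given. OsR498G0509824100.01 had 25.9, 28.9 and 26.6 CPM in WY308, against 16.8, 16.9 and 19.5 CPM in WFB and 22.6, 23.0 and 25.3 CPM in R308, a log2 deviation of 0.39 ± 0.11 (edgeR's quasi-likelihood test, Benjamini-Hochberg adjusted p = 0.0403). That call was lost in 7 of the 9 fits that left out 1 library. No gene of the list was called beyond both parents in WY308, against 0.296% of all tested genes, where DESeq2 also called 0. In edgeR 11 genes had an unadjusted p below 0.05 against each parent. That number did not require the same direction, so it includes any genes between the parents, and its all-gene share was not determined. Without WY308 replicate 7, 2 genes were called, against 0.991% of all tested genes, and without R998 replicate 9 as well 60 were called, against 3.54%.

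In WR, 2 genes lay above mid-parent and 0 below, against 1.15% of all tested genes, 0.493% higher and 0.655% lower (edgeR's quasi-likelihood test, Benjamini-Hochberg adjusted p below 0.05). OsR498G0714358000.01 had 33.2, 27.8 and 33.4 CPM in WR, against 15.1, 15.2 and 16.5 CPM in WFB and 24.2, 21.0 and 18.4 CPM in RFB, a log2 deviation of 0.77 ± 0.12 (edgeR's quasi-likelihood test, Benjamini-Hochberg adjusted p = 0.0113). OsR498G0509824100.01 had 33.2, 31.2 and 30.2 CPM in WR, against the WFB values above and 25.9, 24.5 and 23.0 CPM in RFB, a log2 deviation of 0.58 ± 0.11 (edgeR's quasi-likelihood test, Benjamini-Hochberg adjusted p = 0.0253). The WR libraries did not overlap either parent for these 2 genes. The count was 0 without WR replicate 7 or WR replicate 9, and 1 without WFB replicate 7 or RFB replicate 9, with all-gene shares not given. With R998 replicate 9 and WY308 replicate 7 left out of the shared fit, 66 genes were called above mid-parent and 7 below, against 10.3% of all tested genes, while the median log2 deviation remained 0.48. Beyond both parents WR had 0 genes of the list, against 0.0908% of all tested genes, where DESeq2 called 1, against 0.584%. In edgeR 13 genes had an unadjusted p under 0.05 against each parent. That number did not require the same direction, so it includes any genes between the parents, and its all-gene share was not determined.

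WY998 had 1 gene above mid-parent and 0 below, against 0.142% of all tested genes, 0.0434% higher and 0.0987% lower (edgeR's quasi-likelihood test, Benjamini-Hochberg adjusted p below 0.05). This gene, OsR498G0408583700.01, had 68.5, 66.9 and 60.9 CPM in WY998, against 44.4, 45.6 and 50.5 CPM in WFB and 42.3, 38.3 and 46.6 CPM in R998, a log2 deviation of 0.55 ± 0.10 (edgeR's quasi-likelihood test, Benjamini-Hochberg adjusted p = 0.0255). It was also the 1 gene beyond both parents, against 0.0947% of all tested genes, at a log2 of 0.48 above the nearer parent (adjusted p = 0.0240). The call against mid-parent was lost in 7 of the 9 fits that left out 1 library and the call beyond both parents in 4. With R998 replicate 9 and WY308 replicate 7 left out, 13 genes were called against mid-parent, 11 higher and 2 lower, against 1.46% of all tested genes, and 2 beyond both parents, against 0.220%.

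The 4 hybrids that cross WFB or RFB with R998 or R308 also allowed the effect of R998 against R308 to be compared between the WFB and the RFB crosses. This interaction is the log2 ratio of WY998 to WY308 minus that of RY998 to RY308. It was called for 28 of the 200 genes, 20 positive and 8 negative, against 21.8% of all tested genes, 11.7% positive and 10.1% negative (edgeR's quasi-likelihood test, Benjamini-Hochberg adjusted p below 0.05). Without WY308 replicate 7 the count was 29, 15 positive and 14 negative, against 20.6% of all tested genes, 9.30% positive and 11.3% negative. With R998 replicate 9 left out as well it was 47, 24 positive and 23 negative, against 25.2% of all tested genes.

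OsR498G0306696300.01 had 84.3, 71.4 and 52.5 CPM in WY998 and 25.01, 36.3 and 26.9 CPM in WY308, but 27.3, 21.9 and 25.7 CPM in RY998 and 93.4, 95.9 and 59.5 CPM in RY308. The hybrids thus fell into a high and a low pair that did not overlap, and the interaction was 2.97 ± 0.36 (edgeR's quasi-likelihood test, Benjamini-Hochberg adjusted p = 1.80e-06). In the parents of these hybrids, the gene averaged 63.0 ± 12.4 CPM in WFB, 64.3 ± 19.5 CPM in RFB, 28.6 ± 9.36 CPM in R998 and 23.8 ± 2.69 CPM in R308 (SD, n = 3). OsR498G0203872700.01 had 59.5, 47.1 and 33.4 CPM in WY998 and 20.5, 35.3 and 24.1 CPM in WY308, with 25.7, 25.2 and 39.8 CPM in RY998 and 113, 100.2 and 78.6 CPM in RY308, an interaction of 2.50 ± 0.47 (edgeR's quasi-likelihood test, Benjamini-Hochberg adjusted p = 0.000377).

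Both named genes with a negative interaction had their highest mean in WY308. OsR498G0203382500.01 had 118, 100.1 and 38.9 CPM in WY998 and 187, 557 and 1373 CPM in WY308, with 307, 218 and 126 CPM in RY998 and 280, 253 and 191 CPM in RY308, an interaction of -2.89 ± 0.78 (edgeR's quasi-likelihood test, Benjamini-Hochberg adjusted p = 0.00925). Its WY308 libraries spanned a wide range, and without WY308 replicate 9 the interaction was -1.96 with an adjusted p of 0.0559. OsR498G0409311700.01 had 14.3, 14.9 and 11.6 CPM in WY998 and 28.9, 54.2 and 115 CPM in WY308, with 25.9, 45.9 and 26.1 CPM in RY998 and 22.2, 25.5 and 29.5 CPM in RY308, an interaction of -2.62 ± 0.51 (edgeR's quasi-likelihood test, Benjamini-Hochberg adjusted p = 0.000604). OsR498G0306696300.01, OsR498G0203872700.01 and OsR498G0409311700.01 remained called in all 12 fits that left out 1 library.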

How the data were processed

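Per the submitters' processing notes, HISAT2 aligned the reads. Its version, the counting program, the build and the gene models' origin are not stated in the labels or headers. Deposited by the authors were raw counts per gene model and FPKM values, and 100% of 5387 FPKM values of the 200 genes equalled, to within 1%, the count over a length and the library total. Counts were tested, and FPKM gave only levels and lengths.

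The 27 filling panicle libraries were fitted in 1 model (R 4.3.3, edgeR 4.0.16: filterByExpr, TMM scaling, quasi-likelihood test, a mean per line), and p-values were adjusted over all 25336 genes. Mid-parents were arithmetic, through an offset per gene. Beyond both parents means called against each parent in the same direction, and the larger adjusted p is given. SE is the absolute log2 difference divided by the square root of F. Tests are two-sided, and the scripts were tested on simulated data. Of 100 simulated 2-fold changes each, edgeR recovered 83 between RFB and R998, 89 in RY308 against mid-parent and 51 in the interaction. In RY308 against mid-parent DESeq2 recovered 94, with 24 false calls against 9 in edgeR. Intervals and floors reflect counting error alone. The 27 within-line pairs of libraries had chi-square values of 11.3 to 290 per degree of freedom, so each library was kept as a replicate.

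The genes, lists and tests were chosen with earlier results of these data known. Named genes were those at the edges of the list and, in each comparison, at most 2 higher and 2 lower called genes with the largest log2 difference, at least 5 CPM in the higher group and no overlap between libraries. The interaction, which sets 4 hybrids against each other, was named without the condition on overlap, and differences between lines by the 2 largest and 2 smallest ratios of line means. Marker lists could not be read, as no identifier had a symbol. Alternatives were DESeq2 1.42.0, its size factors, no filter, block 00 left out, a replicate block, and leaving out each library. Tables and figures used Python 3.11.15, pandas 2.3.3, numpy 2.4.6, scipy 1.17.1 and matplotlib 3.10.9.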

Additional observations from a re-analysis of the deposited data

Results flagged for a closer look

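In 28 of the 200 genes the effect of R998 against R308 differed between the WFB crosses and the RFB crosses by a test of the difference itself (edgeR's quasi-likelihood test of the interaction, Benjamini-Hochberg adjusted p under 0.05), a smaller share than the 21.8% of all tested genes. The genes with the largest positive values were OsR498G0306696300.01, with a log2 interaction of 2.97, and OsR498G0203872700.01, with 2.50. The largest negative values were -2.89 in OsR498G0203382500.01 and -2.62 in OsR498G0409311700.01. WY998 and RY308 were both higher than WY308 and RY998 in the first pair of genes, with no overlap between libraries in OsR498G0306696300.01. No cause was tested.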

How the results depend on the processing

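Each line had 3 libraries, and R998 replicate 9 and WY308 replicate 7 differed from the others of their lines in these same genes, which limits what the comparisons can show. The libraries were picked for the spread of these genes, so in most of them R998 moved down and WY308 up by construction. The share of all tested genes follows each count in parentheses. Leaving out both was chosen after seeing the data. It gave 131 called genes for WFB against R998 (29.0%), 162 for RFB against R998 (31.5%), 78 for RFB against R308 (33.5%), 1 for WFB against RFB (0.823%), 111 for R998 against R308 (30.7%), 193 for differences between the 9 lines (66.4%) and 47 for the interaction (25.2%). Against mid-parent it gave 13 in WY998 (1.46%), 81 in WY308 (16.9%), 36 in RY998 (17.98%), 46 in RY308 (9.59%) and 73 in WR (10.3%), and beyond both parents 2 (0.220%), 60 (3.54%), 8 (7.60%), 7 (1.22%) and 1 (1.03%) in the same crosses. The cause was not tested.

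DESeq2 called 5 genes against mid-parent in WY998 (0.663% of all tested genes), 11 in WY308 (9.18%) and 4 in WR (4.18%), and beyond both parents 2 in WY998 (0.146%) and 1 in WR (0.584%). Without a filter, 2 genes in RY998 (3.37%) and 1 in RY308 (0.262%) lay beyond both parents. The cause was not tested. The replicate numbers gave no pairing (31 of 108 pairs of same-numbered libraries correlated above 0.1, and 4 of 27 libraries correlated best with their own number). With the replicate block, differences between lines were called for 97 genes (49.6% of all tested genes) and RY308 had 1 gene beyond both parents (0.422%). The other 83 of 108 counts moved by at most 1.5 times, and all-gene medians moved by at most 0.07 log2 between scalings.

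Leaving out 1 library at a time, counts ranged from 30 to 98 for WFB against R998, 34 to 44 for WFB against R308, 42 to 138 for RFB against R998, 24 to 35 for RFB against R308, 0 to 1 for WFB against RFB, 23 to 71 for R998 against R308, 24 to 31 for the interaction and 87 to 186 for differences between lines. Against mid-parent they ranged from 0 to 1 in WY998, 2 to 49 in WY308, 10 to 26 in RY998, 7 to 20 in RY308 and 0 to 3 in WR, and beyond both parents from 0 to 2, 0 to 2, 1 to 5, 0 to 3 and 0 to 0 in the same order. These ranges lack the share of all tested genes, which also moved. For differences between lines it was 53.1% with all libraries and 61.2% without R998 replicate 9. Of 429 values of named genes without 1 library, 368 kept their direction and call and 61 kept only the direction. Of 270 under the other settings, 264 kept both and 6 only the direction. None reversed.

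The list itself depends on its rule: 196 genes passed the fold with 1 CPM added in place of 0.1, 578 at 16-fold and 295 at 64-fold. With all counts in the library total 411 passed, and 191 of the 200 genes kept their place in the list. Fewer kept it under the other settings, namely 136 with 1 CPM added, 159 at 16-fold and 164 at 64-fold.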
